A study of Mus musculus with 36 samples.

Results

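Gene expression was compared between limb muscles of mice transgenic for alpha tropomyosin slow and of wild-type mice, both 7 months old. The arrays were those whose titles name extensor digitorum longus (EDL), gastrocnemius (GAS), plantaris (PLT) or tibialis anterior (TA) at this age, and they were 16 of the 36 arrays of the series, 8 transgenic and 8 wild type. Each muscle had 2 transgenic arrays and 2 wild-type arrays, and each array was hybridized with RNA from a pool of 3 to 5 mice. The diaphragm arrays were left out, and the 12 limb arrays from mice of 10 months, 6 transgenic and 6 wild type, served as the nearest comparison. The series carries the name of nemaline myopathy, but the strain of the mice, the transgene's promoter and its form were not stated in the labels. Nothing in the labels says that the 2 arrays of a group came from separate sets of animals. The p-values therefore measure only the spread between arrays, which may be technical. The labels also do not say whether the muscles of a genotype and replicate number came from the same mice. If they did, the 8 arrays per genotype are not 8 independent samples.

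Tropomyosin lies along the actin filament of the sarcomere and, with the troponins, controls when myosin can bind. The slow alpha form is the product of the gene Tpm3 and belongs to slow-twitch fibres, whereas fast fibres use the products of Tpm1 and Tpm2. Nemaline myopathy is a muscle disease of thin filament genes, in which material of the Z-disc, the structure that anchors the thin filaments, gathers into rods.

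Values are MAS5 signals, the summarised brightness of an Affymetrix probe set, after scaling each array to the same trimmed mean. Changes are differences of log2(signal + 50), transgenic minus wild type, from a limma model with muscle and replicate number as blocks. A probe set was called at a Benjamini-Hochberg adjusted p under 0.05 over the 8660 probe sets tested. Such a difference understates the change of dim probe sets. In these bulk samples fewer cells of a type and less RNA per cell cannot be told apart.

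The arrays carried the signals of skeletal muscle. Acta1, the skeletal actin, ranged from 24894 to 62294 on transgenic arrays and from 27718 to 56957 on wild-type arrays. The hepatocyte genes Apoa1 and Fabp1 had medians of 41.2 and 26.6 on transgenic arrays and of 38.3 and 15.8 on wild-type arrays. The summed signal of the hepatocyte markers lay between 1389 and 5049 on transgenic arrays and between 2069 and 4280 on wild-type arrays, against 8350 to 198740 on the diaphragm arrays, and 12 of the 18 markers had a median under 100 on the limb arrays. Between 57.4 and 63.6% of probe sets reached a signal of 100 on transgenic arrays, and between 59.3 and 64.6% on wild-type arrays. The 3' to 5' ratio of Gapdh, a measure of RNA integrity, was 0.905 to 1.76 on transgenic arrays and 0.907 to 1.39 on 7 wild-type arrays, but 3.69 on wild-type PLT replicate 2. On 2 arrays the run record did not match the label: that of transgenic GAS replicate 1 names plantaris, and that of wild-type GAS replicate 1 gives another age. Run records were filled for the 8 arrays of replicate 1 and empty for the 8 of replicate 2. In no muscle were both genotypes of replicate 1 scanned on 1 day, and in 2 of the 4 muscles, EDL and TA, both were run by 1 operator.

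The transgene is a tropomyosin, so the tropomyosin genes come first. None of the 5 probe sets tested was called. Tpm3 had signals of 4634 and 18429 in transgenic EDL, 12597 and 19497 in GAS, 16551 and 26228 in PLT and 1607 and 2165 in TA. Wild-type muscles gave 7445 and 9840 in EDL, 12410 and 21575 in GAS, 17169 and 24281 in PLT and 1088 and 1904 in TA. The genotypes overlapped, and the muscles differed far more than the genotypes: TA was lowest in both. The estimated change of Tpm3 was 0.11 ± 0.14 (SE, adjusted p = 0.788). Whether this probe set detects the transcript of the transgene is not given in the sources used here, so the level of Tpm3 is no check of the labels. A second probe set of Tpm3 was too dim to test. Tpm2, the beta tropomyosin of both fibre types, ranged from 12573 to 19775 on transgenic arrays and from 9608 to 19383 on wild-type arrays, with an estimate of 0.21 ± 0.12 (SE, adjusted p = 0.464); its second, dim probe set had an estimate of -0.31 ± 0.27 (SE, adjusted p = 0.665). Tpm1, the gene of the fast alpha form, had an estimate of -0.04 ± 0.13 (SE, adjusted p = 0.925). Its probe set was far dimmer than that of Tpm2, at 382 to 572 on transgenic arrays and 330 to 710 on wild-type arrays. Whether it detects the form of fast fibres is not given in the sources used here, so that form may not have been measured. Tpm4, a tropomyosin of the cytoskeleton, had an estimate of -0.02 ± 0.13 (SE, adjusted p = 0.958).

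Over the 4 muscles, 19 probe sets were called, 0.219% of those tested. Higher in transgenic muscle were 16 (0.185%), and lower were 3 (0.0346%). When replicate number was dropped from the model, 6 were called. At an unadjusted p under 0.05 there were 1127 probe sets (13.0%), 491 higher (5.67%) and 636 lower (7.34%). Represented by the probe set of highest signal, the called genes were 14 that rose and 3 that fell, and 16 of them, 13 higher and 3 lower, had the same sign in all 8 pairs of transgenic and wild-type arrays. Among all tested probe sets, 1.67% were higher in all 8 pairs and 1.21% lower. Leaving out 1 array at a time gave 8 to 47 calls: 8 without wild-type EDL replicate 1, 10 without transgenic EDL replicate 1, wild-type PLT replicate 1, transgenic PLT replicate 2 or transgenic TA replicate 1, and 47 without wild-type GAS replicate 2. In these fits 8 of the 19 passed every time: Ankrd2, Csrp3, Pdlim1, Bag3, Slc66a2, Srpk3, Rcan1 and Sspn. On the arrays of replicate 1 alone and of replicate 2 alone the change was 2.56 and 2.30 for Ankrd2, 2.16 and 1.60 for Csrp3, and 0.81 and 0.56 for Bag3. Transgenic GAS replicate 1, whose record names plantaris, and wild-type PLT replicate 2, with the high Gapdh ratio, are called here the 2 arrays in doubt. Without them 10 were called. With the scan day of the array as a block only Ankrd2 passed (adjusted p = 0.0472). In that fit the 8 arrays of replicate 2, which have no recorded day, formed 1 level. No muscle had both genotypes of replicate 1 scanned on 1 day, so this fit separates scan day and genotype poorly. A random block for each combination of genotype and replicate number allows for muscles taken from the same mice. That fit had no fixed block for replicate number, so it stands beside the 6 calls without that block rather than the 19. A shift common to a replicate number enters the random block too. With the random block limma called 0, with 149 at an unadjusted p under 0.05 and an adjusted p of 0.0711 for Ankrd2.

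The 4 largest rises were those of Ankrd2, Csrp3, Pdlim1 and Xirp1, whose products bind proteins of the Z-disc, the neighbouring I-band or the sites where fibres attach. With Lims1 they belong to a list of Z-disc adaptors and stretch-responsive proteins. The list was written with earlier results of these data known, so their place in it is no separate evidence. Of its 19 tested members 5 rose and none fell, while of all 6386 genes 14 rose and 3 fell. The median change was 0.14 over the list, against -0.01 over all genes. Leaving out 1 array at a time, that median was lowest without wild-type EDL replicate 2, at 0.08, and highest without transgenic GAS replicate 1, at 0.25. Members higher in transgenic muscle numbered 15 of 19, against 47.2% of all genes. The promoters of the 3 largest are printed because these genes were higher in all 8 pairs of arrays. They are the 250 bases before the transcription start in RefSeq (GRCm38.p6), and capitals mark E-boxes, CANNTG, the motif that myogenic factors such as MyoD bind. Ankrd2 lies at chr19:42035777-42036026 on the plus strand, Csrp3 at chr7:48848052-48848301 and Pdlim1 at chr19:40271617-40271866, both on the minus strand.
Ankrd2: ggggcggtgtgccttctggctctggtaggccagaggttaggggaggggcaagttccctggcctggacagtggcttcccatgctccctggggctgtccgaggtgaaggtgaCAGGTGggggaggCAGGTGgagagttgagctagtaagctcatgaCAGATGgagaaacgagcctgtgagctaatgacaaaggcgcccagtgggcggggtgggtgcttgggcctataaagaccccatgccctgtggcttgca
Csrp3: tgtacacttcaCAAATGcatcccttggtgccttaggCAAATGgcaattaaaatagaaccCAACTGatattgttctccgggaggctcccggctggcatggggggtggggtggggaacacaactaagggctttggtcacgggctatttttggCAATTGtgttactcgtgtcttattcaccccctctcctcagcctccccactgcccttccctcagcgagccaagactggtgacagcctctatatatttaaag
Pdlim1: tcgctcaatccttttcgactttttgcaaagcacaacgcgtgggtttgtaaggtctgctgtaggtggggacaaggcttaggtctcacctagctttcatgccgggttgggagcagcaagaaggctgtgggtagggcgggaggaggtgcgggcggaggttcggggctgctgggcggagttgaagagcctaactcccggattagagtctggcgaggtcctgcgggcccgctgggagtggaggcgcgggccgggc
The window of Ankrd2 held 3 E-boxes, the nearest at -96 to -91 from the start, and that of Csrp3 held 4, the nearest at -100 to -95. The window of Pdlim1 held none. E-boxes were found in 66.2% of the 32851 promoter windows of this length on either strand. The MCAT motif CATTCC, read on both strands, and the CArG box were found in 12.6% and 1.47% of all windows and in none of these 3. A second start of Csrp3, at chr7:48843672-48843921, also had 4 E-boxes. A match is only a match of letters and shows no binding.

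Ankrd2, a muscle ankyrin repeat protein that binds titin in the I-band and responds to stretch, had the largest change. Its signals in transgenic muscle were 7345 and 7584 in EDL, 3566 and 5136 in GAS, 9538 and 14416 in PLT, and 10297 and 9908 in TA. Wild-type muscle gave 972 and 996 in EDL, 1006 and 2294 in GAS, 1891 and 4896 in PLT, and 996 and 754 in TA. Within each muscle both transgenic arrays lay above both wild-type arrays, and across muscles the ranges overlapped only in that wild-type PLT replicate 2, at 4896, exceeded transgenic GAS replicate 1, at 3566. The mean was 8474 ± 3362 in transgenic muscle and 1726 ± 1388 in wild-type muscle (SD, n = 8 arrays each). The log2 change was 2.43 ± 0.24 (SE), or 5.39-fold (limma, adjusted p = 0.000121). Ankrd1, its stretch-responsive relative, had an estimate of 0.07 ± 0.28 (SE, adjusted p = 0.938).

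Csrp3, the muscle LIM protein of the Z-disc, had signals of 9007 and 4496 in transgenic EDL, 2913 and 3755 in GAS, 11392 and 14314 in PLT, and 7576 and 4201 in TA. In wild-type muscle these were 1309 and 1254 in EDL, 1128 and 1798 in GAS, 2487 and 8408 in PLT, and 1394 and 557 in TA. The 2 genotypes separated within every muscle, although the wild-type PLT arrays differed widely from each other. The change was 1.88 ± 0.27 (SE, adjusted p = 0.00686), 3.69-fold.

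Pdlim1, a PDZ and LIM domain protein that binds alpha-actinin, rose by 1.14 ± 0.17 (SE, adjusted p = 0.00713), with 2160, 3510 and 6081 as the lowest, median and highest signal on transgenic arrays and 751, 1579 and 2971 on wild-type arrays. Its second, dimmer probe set did not follow: -0.24 ± 0.15 (SE, adjusted p = 0.518). Xirp1 encodes Xin, an actin-binding repeat protein of muscle attachment sites. Its lowest, median and highest signals were 3484, 6745 and 10642 on transgenic arrays and 1727, 3070 and 5545 on wild-type arrays, a change of 1.09 ± 0.20 (SE, adjusted p = 0.0243). Lims1, an adaptor of integrin-linked kinase, ranged from 1015 to 1795 on transgenic arrays (median 1331) and from 759 to 1350 on wild-type arrays (median 912), and rose by 0.53 ± 0.10 (SE, adjusted p = 0.0212).

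Other adaptors of the list did not pass. Nrap, which links actin filaments to the membrane at the fibre ends, had an estimate of 0.67 ± 0.14 (SE, adjusted p = 0.0692). Fhl1 and Ldb3, both bright, had estimates of 0.08 (adjusted p = 0.850) and 0.02 (adjusted p = 0.959). The lowest value was that of Tcap, the titin cap protein, at -0.48 (adjusted p = 0.264).

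**Figure D1:**
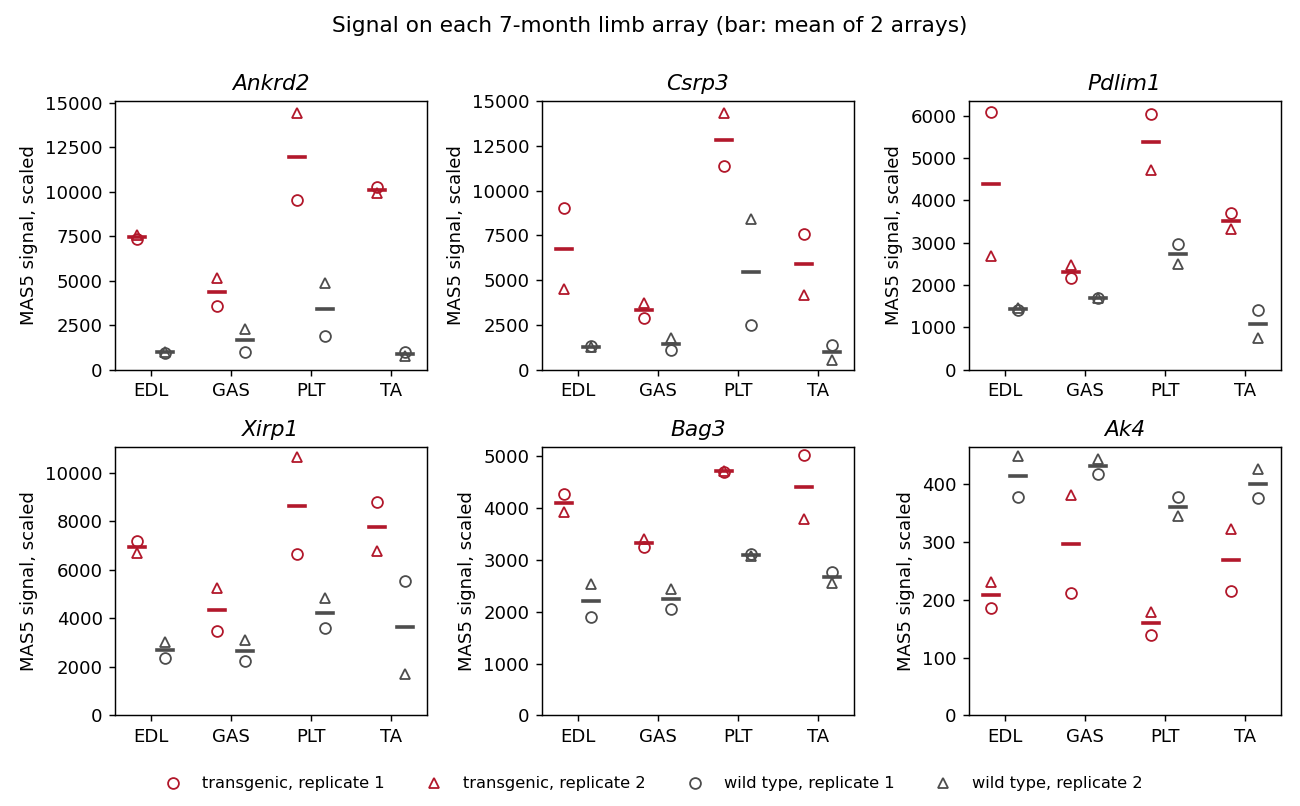
Scaled MAS5 signal (y axis, linear, from 0) of 6 genes on each of the 16 limb arrays by muscle (x axis), with transgenic arrays in red left of wild-type arrays in grey, circles for replicate 1, triangles for replicate 2 and bars for the mean of the 2 arrays. Within every muscle both transgenic arrays lie above both wild-type arrays for Ankrd2, Csrp3, Pdlim1, Xirp1 and Bag3 and below them for Ak4.

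Over all 6386 genes tested 14 rose, 47.2% had estimates above 0 and the median was -0.01. Of 19 tested genes of the heat shock and unfolded protein response 1 rose, 16 had estimates above 0 and the median was 0.12. The call was Bag3, the HSP70 co-chaperone that serves the turnover of damaged Z-disc proteins. Its signals in transgenic muscle were 4274 and 3924 in EDL, 3241 and 3402 in GAS, 4699 and 4723 in PLT, and 5029 and 3780 in TA. Those in wild-type muscle were 1897 and 2532 in EDL, 2052 and 2443 in GAS, 3122 and 3072 in PLT, and 2767 and 2556 in TA. All 8 transgenic arrays lay above all 8 wild-type arrays, as happened for 4 probe sets in all (0.0462%). The change was 0.69 ± 0.10 (SE, adjusted p = 0.00646), and a second probe set gave 0.53 ± 0.15 (SE, adjusted p = 0.150). Hspa1l, an HSP70 family chaperone outside that list, rose by 0.72 ± 0.14 (SE, adjusted p = 0.0407), with 780 to 1728 on transgenic arrays and 373 to 1329 on wild-type arrays. Dnaja2, an HSP40 co-chaperone also outside it, had an estimate in the other direction, -0.52 ± 0.11 (SE, adjusted p = 0.0591), and was lower in all 8 pairs. Hspb8, the small heat shock protein that partners Bag3, had an estimate of 0.37 ± 0.09 (SE, adjusted p = 0.0920) and was higher in all 8 pairs. Hspa1a, the inducible HSP70, had 0.81 ± 0.31 (SE, adjusted p = 0.289) and was higher in only 5 pairs.

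Rcan1 encodes an inhibitor of the phosphatase calcineurin and is itself a calcineurin target gene. It was the 1 call among 13 tested genes of calcineurin, NFAT and the slow programme. Their median was -0.05, against -0.01 over all 6386 genes, of which 14 rose and 3 fell. The transgenic signals of Rcan1 were 2426 and 2090 in EDL, 1826 and 1475 in GAS, 3521 and 4766 in PLT, and 2613 and 2097 in TA. The wild-type signals were 1185 and 1435 in EDL, 1221 and 1396 in GAS, 1560 and 2355 in PLT, and 1110 and 1278 in TA. PLT was highest in both genotypes, and GAS showed the smallest gap. The change was 0.78 ± 0.13 (SE, adjusted p = 0.0116). The calcineurin subunits Ppp3ca and Ppp3r1 had estimates of -0.26 (adjusted p = 0.438) and -0.01 (adjusted p = 0.990).

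Sspn, sarcospan of the dystrophin complex, was the 1 call among 13 tested genes of the fibre membrane. Their median was 0.16, against -0.01 over all 6386 genes, of which 14 rose and 3 fell. Transgenic arrays ranged from 1080 to 2416 for Sspn (median 1751) and wild-type arrays from 661 to 1293 (median 1057). Its change was 0.76 ± 0.12 (SE, adjusted p = 0.0116). Dag1 and Sgca, dystroglycan and alpha-sarcoglycan of the same complex, had estimates of 0.05 (adjusted p = 0.890) and -0.02 (adjusted p = 0.963), and Dmd, dystrophin itself, 0.16 (adjusted p = 0.759).

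The other genes that rose were of varied function. Srpk3, a kinase of splicing factors found in striated muscle, ranged from 812 to 1354 on transgenic arrays and from 370 to 815 on wild-type arrays, so that only the lowest transgenic and highest wild-type arrays overlapped; its change was 0.67 ± 0.10 (SE, adjusted p = 0.00713). Slc66a2, a membrane protein of the PQ-loop family, was the other called gene whose genotypes did not overlap, with 1029 to 1708 on transgenic arrays and 580 to 942 on wild-type arrays and a change of 0.75 ± 0.11 (SE, adjusted p = 0.00713). Rab11fip5, an effector of Rab11 in recycling endosomes, rose by 0.75 ± 0.13 (SE, adjusted p = 0.0212), and Pde8a, a phosphodiesterase that breaks down cAMP, by 0.68 ± 0.13 (SE, adjusted p = 0.0372). Pde8a was dim, with medians of 362 on transgenic arrays and 229 on wild-type arrays. Of the 3 called probe sets outside the naming rule, Wfs1, the endoplasmic reticulum protein wolframin, rose by 0.68 ± 0.13 (SE, adjusted p = 0.0407) and was higher in 7 of 8 pairs. The phosphatase Ppm1b (0.97, adjusted p = 0.0212) and the chloride intracellular channel protein Clic4 (0.72, adjusted p = 0.0407) were called by a dimmer probe set, while their brightest probe sets gave 0.52 (adjusted p = 0.289) and 0.43 (adjusted p = 0.384).

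The 3 genes that fell were Ak4, Mt3 and Smpdl3a. The number of lower calls depended on the model and the arrays: it was 0 without replicate number in the model or without the 2 arrays in doubt, 17 of 38 leaving out GAS, and 14 of 47 either with array weights or without wild-type GAS replicate 2. Ak4, a mitochondrial adenylate kinase, had signals of 186 and 232 in transgenic EDL, 212 and 381 in GAS, 140 and 179 in PLT, and 215 and 323 in TA, against 379 and 450 in wild-type EDL, 418 and 445 in GAS, 378 and 345 in PLT, and 376 and 426 in TA. Only transgenic GAS replicate 2, at 381, reached the range of the wild-type arrays. The change was -0.72 ± 0.12 (SE, adjusted p = 0.0212), and the second probe set gave -0.52 ± 0.17 (SE, adjusted p = 0.210). The abundant Ak1, the cytosolic adenylate kinase, and Ckm, muscle creatine kinase, had estimates of 0.01 (adjusted p = 0.983) and -0.08 (adjusted p = 0.815). Mt3, a metal-binding metallothionein, had medians of 892 on transgenic arrays and 1690 on wild-type arrays and fell by 0.73 ± 0.14 (SE, adjusted p = 0.0391). Its ranges overlapped widely, 599 to 1827 on transgenic arrays and 1014 to 2640 on wild-type arrays, and replicate 2 was brighter than replicate 1 in every group; within each pair the transgenic array was the lower. Smpdl3a, a secreted phosphodiesterase of the sphingomyelinase family, ranged from 901 to 1432 on transgenic arrays and from 1314 to 2633 on wild-type arrays and fell by 0.56 ± 0.10 (SE, adjusted p = 0.0212).

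**Figure D2:**
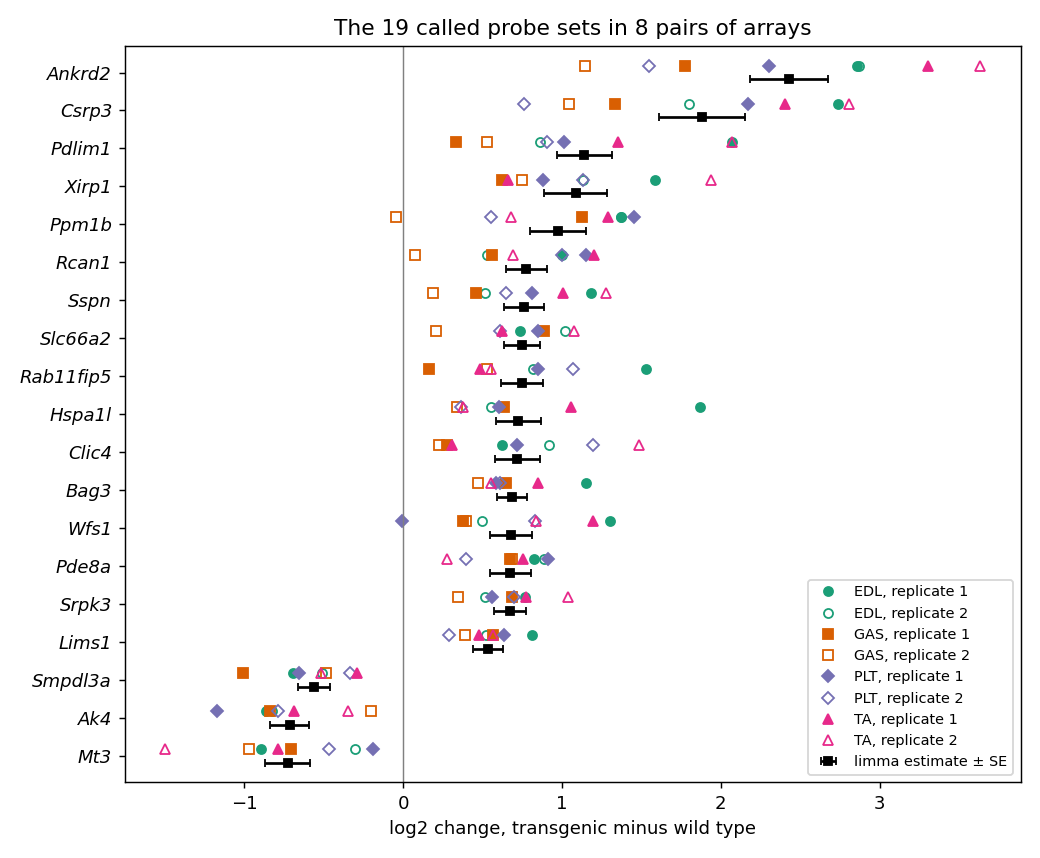
Log2 change, transgenic minus wild type (x axis), of the 19 called probe sets (y axis) in each of the 8 pairs of arrays (coloured, filled for replicate 1 and open for replicate 2), with the limma estimate ± SE in black. The 16 higher probe sets lie right of 0 except 1 GAS pair of Ppm1b and 1 PLT pair of Wfs1, and the 3 lower ones lie left of 0 in all pairs.

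The effect was then estimated in each muscle, from 2 transgenic and 2 wild-type arrays with a shared estimate of the spread. In EDL 2 probe sets were called (0.0231%), in GAS 1 (0.0115%), in PLT 0 of 8660 (483 at an unadjusted p under 0.05) and in TA 6 (0.0693%), all of them higher in transgenic muscle. Ankrd2 was called in EDL, at 2.86 ± 0.34 (SE, adjusted p = 0.00580), and in TA, at 3.47 ± 0.34 (SE, adjusted p = 0.000269), and its estimates were 1.46 in GAS and 1.93 in PLT. St3gal5, which makes the ganglioside GM3, had signals of 2146 and 1179 in transgenic EDL and 1644 and 2094 in transgenic TA, against 409 and 418 in wild-type EDL and 381 and 309 in wild-type TA. It rose by 1.83 ± 0.28 in EDL (SE, adjusted p = 0.0488) and by 2.28 ± 0.28 in TA (SE, adjusted p = 0.00194), while in GAS its 2 transgenic signals of 665 and 645 lay among the wild-type signals of 605 and 909. In PLT the transgenic arrays, at 1863 and 2282, lay above the wild-type arrays, at 1142 and 1364, and the F test of the difference between muscles gave an adjusted p of 0.117. Sstr2, a somatostatin receptor, was the 1 call in GAS, with 358 and 314 on transgenic arrays and 39.6 and 49.5 on wild-type arrays (2.03 ± 0.29, SE, adjusted p = 0.0416). In TA the order of its signals was the opposite, at 122 and 125 on transgenic arrays and 267 and 272 on wild-type arrays, and the F test of the difference between muscles gave an adjusted p of 0.0787. Without 1 array at a time, Ankrd2 in EDL lost its call without either wild-type EDL array or without transgenic EDL replicate 1 (adjusted p up to 0.305), St3gal5 in EDL passed in 3 of 16 fits and Sstr2 in 2 of 16.

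The calls in TA included genes of slow fibres, and the remaining ones there were Pdlim1 (1.71, adjusted p = 0.0394) and Lrrfip2. Myl2, the regulatory myosin light chain of slow and cardiac muscle, had signals of 4731 and 5822 on transgenic TA arrays and 723 and 796 on wild-type TA arrays, and rose by 2.71 ± 0.20 (SE, adjusted p = 1.14e-05). In EDL the transgenic arrays read 15555 and 17815 and the wild-type arrays 10582 and 8931; in GAS the transgenic arrays read 18069 and 24488 and the wild-type arrays 17794 and 24439; and in PLT the transgenic arrays read 18365 and 24543 and the wild-type arrays 22813 and 24401. The 2 genotypes were thus apart in TA and EDL and overlapped in GAS and PLT. Myl2 was the 1 probe set of 8660 (0.0115%) whose change differed between the 4 muscles in the moderated F test (adjusted p = 0.00161). Tnnt1, slow troponin T, had 2462 and 3986 on transgenic TA arrays and 674 and 643 on wild-type TA arrays, and rose by 2.17 ± 0.25 there (SE, adjusted p = 0.00164). Its estimates in EDL, GAS and PLT were 0.16, -0.19 and -0.02, and the F test gave an adjusted p of 0.0787. None of the 19 probe sets called over the 4 muscles passed that test. The TA count and its direction turned on single arrays. It was 27 (25 higher, 2 lower) without wild-type TA replicate 1, 29 (13 higher, 16 lower) without transgenic TA replicate 1 and 15 (7 higher, 8 lower) without transgenic TA replicate 2, where the lone array left is taken to vary like the other groups. Myl2 and Ankrd2 passed in TA in all 16 such fits, whereas Tnnt1 and St3gal5 missed the threshold without wild-type TA replicate 2 (adjusted p = 0.0532 and 0.0561).

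All 10 slow-fibre genes tested had estimates above 0 over the 4 muscles, with a median of 0.53. Of all 6386 genes 47.2% had estimates above 0, the median was -0.01 and 381 were higher at an unadjusted p under 0.05. The 10 include Tpm3 (0.11), whose probe set may or may not detect the transgene. None of the 10 was called and 4 had an unadjusted p under 0.05. The 2 brightest were Tnnt1, at 0.53 ± 0.26 (SE, adjusted p = 0.401), and Myl2, at 0.84 ± 0.29 (SE, adjusted p = 0.237). The smallest p in the list was that of Tnni1, slow troponin I, at 0.80 ± 0.17 (SE, adjusted p = 0.0641), which was named after its value was seen. The list median was 0.27 in EDL, 0.11 in GAS, 0.28 in PLT and 1.21 in TA, and 0.19 over the other muscles when TA was left out. Wild-type TA was the dimmest wild-type muscle for Tnni1, which read 714 and 828 there, against 12765 and 15444 in wild-type PLT. Transgenic TA gave 1736 and 2877 for Tnni1, still below every array of the other muscles. Transgenic EDL replicates differed, with Tnni1 at 4064 and 13274 and Tpm3 at 4634 and 18429.

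All 12 fast-fibre genes tested had estimates below 0, with a median of -0.27. Of all 6386 genes 3370 had estimates below 0, and 468 were lower at an unadjusted p under 0.05. The 12 include Tpm1 (-0.04), whose probe set may not detect the form of fast fibres. None of the 12 was called and 6 had an unadjusted p under 0.05. The brightest, Myl1, the fast essential light chain, and Atp2a1, the calcium pump of fast fibres, had -0.33 ± 0.12 (SE, adjusted p = 0.274) and -0.33 ± 0.14 (SE, adjusted p = 0.348). The list median was -0.50 over the arrays of replicate 1 alone and -0.02 over those of replicate 2 alone, and -0.07 after quantile normalization.

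**Figure D3:**
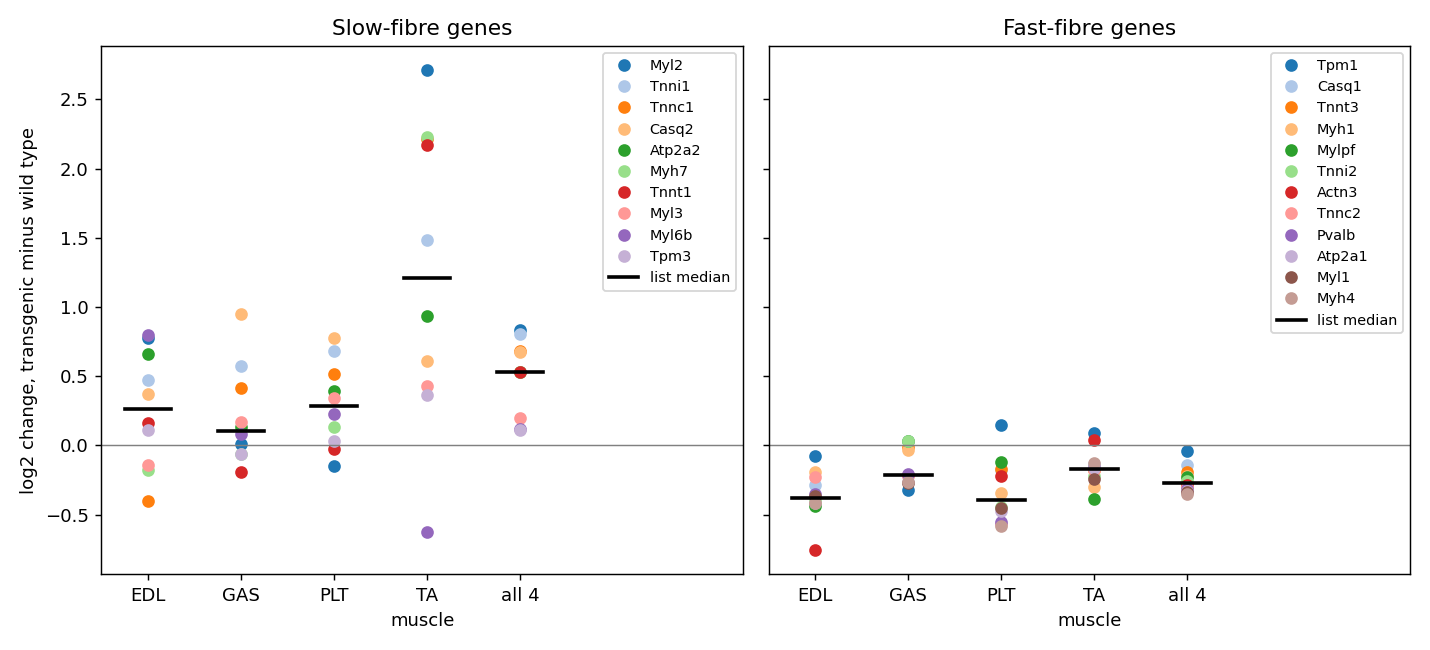
Log2 change, transgenic minus wild type (y axis), of each slow-fibre gene (left panel) and fast-fibre gene (right panel) in each muscle and over all 4 (x axis), with black bars for the list median. Slow-fibre medians are above 0 in every muscle and reach 1.21 in TA, and fast-fibre medians lie below 0 in every muscle; no member was called over the 4 muscles.

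Other gene groups showed few or no calls. Among all 6386 genes 14 rose, 3 fell, 47.2% had estimates above 0 and the median was -0.01. Of 37 proteasome subunits tested none was called, 31 had estimates above 0 and the median was 0.11; the brightest, Psma3 and Psma6, had -0.11 (adjusted p = 0.674) and 0.11 (adjusted p = 0.703). Extracellular matrix genes had a median of 0.12 with none of 28 called; Dcn, decorin, had -0.19 (adjusted p = 0.376) and Col1a1, a chain of type I collagen, 0.35 (adjusted p = 0.306). Respiratory chain genes had a median of -0.03 (none of 34 called), with -0.29 for Cox6a2 (adjusted p = 0.329) and -0.19 for Ndufb5 (adjusted p = 0.418). Glycolytic genes had a median of -0.10 (none of 21 called), with -0.30 for Aldoa (adjusted p = 0.384) and -0.22 for Eno3 (adjusted p = 0.465). Fatty acid genes had a median of 0.07 with none of 18 called, and those of energy buffering and purine metabolism had a median of -0.06 with Ak4 as the 1 call of 10. In the lists of myogenic regulators (18 tested, median 0.03), denervation and atrophy (16 tested, median -0.004), thin filament and nemaline disease genes (9 tested, median -0.10), actin turnover (26 tested, median -0.05), immediate early genes (17 tested, median -0.15), the cell cycle (14 tested, median -0.04), the clock (13 tested, median -0.05) and translation factors (14 tested, median 0.04) none was called. No call fell in the marker lists of macrophages (12 tested, median -0.03), endothelium (10 tested, median 0.05), fat (8 tested, median 0.03), nerve (5 tested, median -0.11), red blood cells (8 tested, median -0.07), lymphocytes (6 tested, median -0.26), hepatocytes (9 tested, median -0.28), keratinocytes (6 tested, median 0.14) or muscle spindles (2 tested, median -0.09), nor on the 1 sex-linked gene tested. The summed signal of the macrophage markers was 3719 to 7274 on transgenic arrays and 4777 to 7962 on wild-type arrays, and that of the endothelial markers 4804 to 8275 on transgenic arrays and 4803 to 7258 on wild-type arrays.

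At 10 months the same limb muscles were profiled with 12 arrays, none of them shared with the younger mice, and GAS and TA had 2 arrays per genotype but EDL and PLT only 1. The effect at 10 months was estimated in a fit to all 28 limb arrays, so its spread and replicate block were shared with the 7-month arrays. The probe sets tested were those kept at 7 months. Of these 8660 probe sets 8 were called at 10 months (0.0924%), 6 higher and 2 lower. The genotype effect at 7 months did not pass as different from that at 10 months for any probe set (0 called by limma, 451 at an unadjusted p under 0.05), which does not show that the ages act alike. Of the 19 probe sets called at 7 months 18 had the same sign at 10 months, and 4 were called there as well: Ankrd2 at 1.78 ± 0.27 (SE, adjusted p = 0.00638), Wfs1 at 0.80 ± 0.16 (SE, adjusted p = 0.0401), Lims1 at 0.58 ± 0.11 (SE, adjusted p = 0.0319) and Ak4 at -0.80 ± 0.14 (SE, adjusted p = 0.0180). The share of all 8660 probe sets with the same sign at both ages is not given here, so the 18 of 19 has no baseline beside it. Bag3 had 0.55 ± 0.12 (SE, adjusted p = 0.0510) and Csrp3 1.37 ± 0.31 (SE, adjusted p = 0.0706) at 10 months. The smallest p for a difference between the ages among the 19 were those of Smpdl3a, at -0.56 at 7 months and 0.02 at 10 months, and of Pde8a, at 0.68 at 7 months and 0.07 at 10 months; the unadjusted p of the difference was 0.00222 and 0.0131, and neither passed after adjustment (adjusted p = 0.950). Tpm3 had 0.11 at 7 months and 0.69 ± 0.21 (SE, adjusted p = 0.164) at 10 months, with an unadjusted p of 0.0485 for the difference. The slow-fibre median was 0.53 at 7 months and 1.07 at 10 months, and that of the fast-fibre genes -0.27 at 7 months and -0.23 at 10 months.

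**Figure D4:**
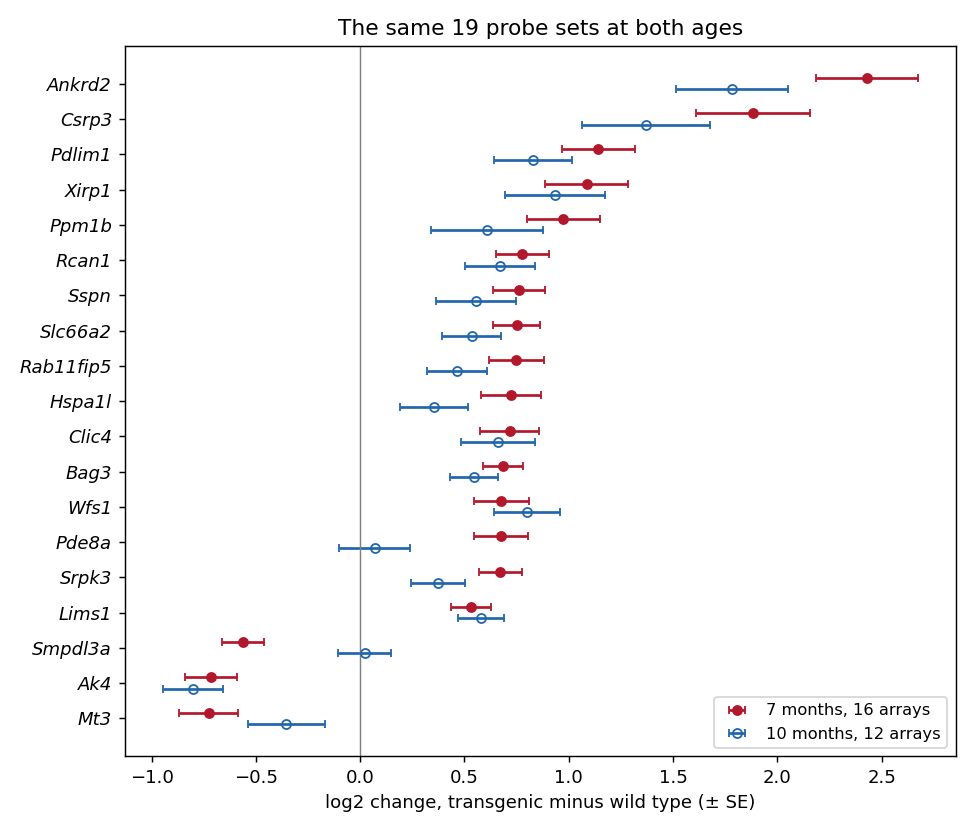
Log2 change, transgenic minus wild type, with its SE (x axis) of the 19 probe sets called at 7 months (y axis), at 7 months (red, 16 arrays) and at 10 months (blue, 12 arrays). The 10-month values come from a fit to all 28 limb arrays, with the spread shared between ages. All but Smpdl3a have the same sign at both ages, and Pde8a and Smpdl3a lie near 0 at 10 months.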

How the data were processed

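Total RNA (8 micrograms per array) was hybridized to Affymetrix MG_U74Av2 arrays, per the labels' protocols. The deposited values are MAS5 signal intensities on a linear scale, per the submitters' processing notes; the MAS5 version is not given in the sources used here. Every deposited array had a 2% trimmed mean of about 1501, so the authors had scaled them alike. Each was rescaled here to 500 and taken to the scale log2(signal + 50).

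The array holds 12488 probe sets. After removal of 66 controls, a signal of 100 on 4 or more of the 16 arrays was required, which left 8660: 7737 with 1 gene symbol, 299 with several and 624 with none. Symbols came from the array's annotation, updated by gene ID (10817 of 10833 probe sets matched). limma 3.58.1 (R 4.3.3, statmod 1.5.0) fitted muscle, replicate number and genotype with an intensity trend, 10 residual degrees of freedom and Benjamini-Hochberg adjustment. Further fits gave the effect in each muscle, the F test between muscles and the difference between ages. The fits were also run on simulated data, in which the noise of each array was drawn independently. Those data had no correlation between arrays of a genotype and replicate number, so that run cannot speak to it.

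Deviations from group means of arrays with the same replicate number correlated in 28 of 28 pairs of groups (0.292 to 0.516), so the numbers were taken to pair the arrays; the labels do not say what a number shares. Correlations between the arrays of a group were 0.877 to 0.936, and 0 arrays were identical. The number of arrays limits precision.

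A gene was represented by its brightest probe set. Named genes are those called with the same sign in all 8 pairs, up to 4 calls per muscle and direction, the calls of the F test, all tropomyosins and, for some lists without a call, the 2 brightest members, the remaining lists being given by counts and medians alone; other genes were named after their values were seen. The members and the 31 gene lists were chosen with earlier results of these data known, and no test was made of a list. Alternatives changed the blocks, pseudocount, filter, normalization, variance trend, array weights and the arrays included. The operator block and leaving out the 2 arrays in doubt, as defined in the Results, were added after the data were seen.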

Additional observations from a re-analysis of the deposited data

Results flagged for a closer look

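Within the 8 wild-type limb arrays Rcan1 stood apart on plantaris replicate 2, at a signal of 2355 with the next array at 1560. The same array had the Gapdh 3' to 5' ratio of 3.69. Rcan1 passed the test without any 1 array (adjusted p at most 0.0455). A single array was looked for in 46 groups of values, of which chance marks about 1 in 20.

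The transgene effect on Myl2 differed between the 4 limb muscles (moderated F test, adjusted p = 0.00161): it was 2.71 in TA, 0.77 in EDL, 0.01 in GAS and -0.15 in PLT.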

How the results depend on the processing

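None of the 19 called probe sets changed sign in the 21 other settings or the 16 fits without 1 array. The count over the 4 muscles was 19 with the replicate number as a block and 6 without the replicate block (the 6 were among the 19). With the 8 pairs as the block it was 17. It was 0 with a random block for genotype by number in place of the replicate block, with an estimated correlation of 0.282. It was 1 with scan day as a block, 13 with the operator, 47 with array weights, 3 on the arrays of number 1 and 0 on those of number 2 (626 at an unadjusted p under 0.05). It was 1 leaving out EDL, 38 leaving out GAS, 2 leaving out PLT and 5 leaving out TA, 10 without the 2 arrays in doubt, and 8 to 47 leaving out 1 array at a time. The cause of these shifts was not tested. Pseudocounts of 16 and 200, the filter, quantile normalization, no trend and all 36 arrays gave 13 to 21. Without the replicate block EDL and GAS had 0 calls and TA 3; with a pseudocount of 200, or with no filter, EDL had 1 and GAS 0. Leaving out 1 array gave 0 to 3 calls in EDL, 0 to 3 in GAS, 0 to 1 in PLT, 4 to 29 in TA, 1 to 5 in the F test (2 without transgenic EDL replicate 1, 5 without transgenic EDL replicate 2) and 0 between ages. Arrays have no read depth; probe sets near a signal of 100 are the least certain.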

Other observations

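The probe sets next after those called were a mixed group. Col3a1, a chain of type III collagen, had an estimate of 0.64 ± 0.13 (SE, limma adjusted p = 0.0510) and was higher in all 8 pairs, with signals of 619 to 1959 on transgenic arrays; within each group replicate 1 was the brighter array. Gadd45b, a stress-induced gene, had -0.74 ± 0.15 (SE, adjusted p = 0.0510) and was lower in all 8 pairs. Dnaja2, an HSP40 co-chaperone, followed at -0.52 (adjusted p = 0.0591). Cdc42se1, a small effector of CDC42, had 0.61 ± 0.13 (SE, adjusted p = 0.0591), Lamtor1, a subunit of the Ragulator complex on lysosomes, had 0.48 ± 0.10 (SE, adjusted p = 0.0641) and Snx12, a sorting nexin, had 0.78 ± 0.17 (SE, adjusted p = 0.0641), each higher in all 8 pairs. Other genes further down the order were picked for what they do, after their values were seen. Twf2 and Enah, both regulators of actin assembly, had 0.62 (adjusted p = 0.0809) and 0.57 (adjusted p = 0.104), and Enah was called at 10 months, at 1.04 ± 0.18 (SE, adjusted p = 0.0180). Atp2a2, the calcium pump of slow fibres, had 0.53 ± 0.12 (SE, adjusted p = 0.0809) at 7 months and 1.21 ± 0.20 (SE, adjusted p = 0.0164) at 10 months. Tead1, a factor that binds the MCAT motif, was lower in all 8 pairs at -0.83 ± 0.23 (SE, adjusted p = 0.136). Its probe set was dim, with signals of 19.8 to 151.4 on transgenic arrays and 40.2 to 238 on wild-type arrays. Its difference is therefore among the least certain.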
